A study of Sus scrofa with 8 samples.

Results

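Glucocorticoid response genes were followed in the olfactory epithelium (OE) of sows with and without a nasal spray of androstenone. The list held 10 genes, chosen by name: FKBP5, TSC22D3, ZBTB16, SGK1, KLF9, CEBPD, ERRFI1, DDIT4, MT2A and PDK4. Of these, 9 matched 1 row each among the 22516 genes of the deposited tables, and MT2A matched none and was not analysed here. The sows were 8 months old, in estrus and offspring of Landrace (♂) and Rongchang pigs (♀). In the androstenone treatment group, 2 sows had Boarmate, a spray that mainly contains androstenone, applied to the nasal cavity. In the control group, 2 sows received no solution at all, so that androstenone, the rest of the spray and the act of spraying cannot be told apart. All 4 sows were slaughtered, those of the androstenone treatment group 30 min after the spray, and each side of the OE, left or right, gave an RNA-seq library of its own. Each group thus had 4 libraries from 2 animals. The sources used here do not tell which libraries share a sow, so p-values measure the spread between libraries.

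Cortisol, the main glucocorticoid of pigs, is released by the adrenal gland under stress and reaches tissues through the blood. Inside cells it binds the glucocorticoid receptor (NR3C1), which is held ready by HSP90 and its partner proteins, enters the nucleus and switches genes on or off. The listed genes are widely used as readouts of that step, because many cell types raise them when cortisol rises. Each of them also answers to other signals, such as lack of oxygen for DDIT4 or fasting for PDK4. The comparison of the groups therefore asks whether the sprayed sows carried a sign of a systemic stress hormone in the OE. A hormone rise shared by both groups, all of which were slaughtered, cannot show in it. No time other than 30 min after the spray was sampled, so a rise of these genes that takes longer could not be seen.

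The libraries were not alike in total deposited counts or in tissue content. Control 1 held 4178330 estimated counts and the other 7 libraries 81580146 to 100685566. In the paper, the clean reads listed under the name of control 1 lie within the range of the other libraries. The low total is thus one of deposited counts, not of listed reads, and its origin was not tested. Intervals from these counts cover counting error only. The 10 most abundant genes held 29.4% of the counts of control 4, against 6.57% to 9.02% elsewhere. The summed level of 8 bone and cartilage markers was 29550 TPM in control 4 and 225 to 1116 TPM in the other 7 libraries. The summed level of 7 markers of respiratory ciliated cells was 897 to 1082 TPM in control 3, androstenone 1 and androstenone 2, and 191 to 538 TPM in the other 5. Of the markers of olfactory sensory neurons, 9 of 10 had a row, with a sum of 91.7 to 217 TPM. These markers were mixed in level. RTP1, GNG13 and NCAM2 reached at most 0.109, 0.205 and 0.246 CPM in any library, while CNGA2 spanned 0.737 to 12.2, GNAL 1.46 to 21.96, EBF1 3.38 to 39.3, ADCY3 18.0 to 43.3, STOML3 48.8 to 224 and ANO2 19.0 to 292 CPM.

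Levels are given first in TPM, which is scaled for transcript length and allows genes to be compared with each other. The members spanned a wide range. CEBPD stood at 148 ± 23.5 TPM (SD, n = 8 libraries), a level above 96.5% of the 21359 genes with any TPM. DDIT4 followed at 143 ± 89.6 TPM and SGK1 at 68.7 ± 7.65 TPM (SD, n = 8 each). The range of DDIT4, from 67.4 to 320 TPM, overlapped that of both neighbours in this order. ERRFI1, FKBP5 and KLF9 formed a middle tier at 12.3 ± 8.59, 11.6 ± 3.82 and 11.1 ± 5.42 TPM, with SDs over libraries that overlapped. ZBTB16 and PDK4 lay lower, at 3.26 ± 0.869 and 3.15 ± 1.29 TPM, again with overlapping SDs. The levels of members were not tested against each other. TSC22D3 was lowest at 1.08 ± 0.17 TPM, above 28.4% of genes, and its highest library, at 1.30 TPM, lay below the lowest library of PDK4 at 1.57 TPM. The low level of TSC22D3 rests on 9 counts in control 1 and on 125 to 232 counts in the other libraries.

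**Figure D1:**
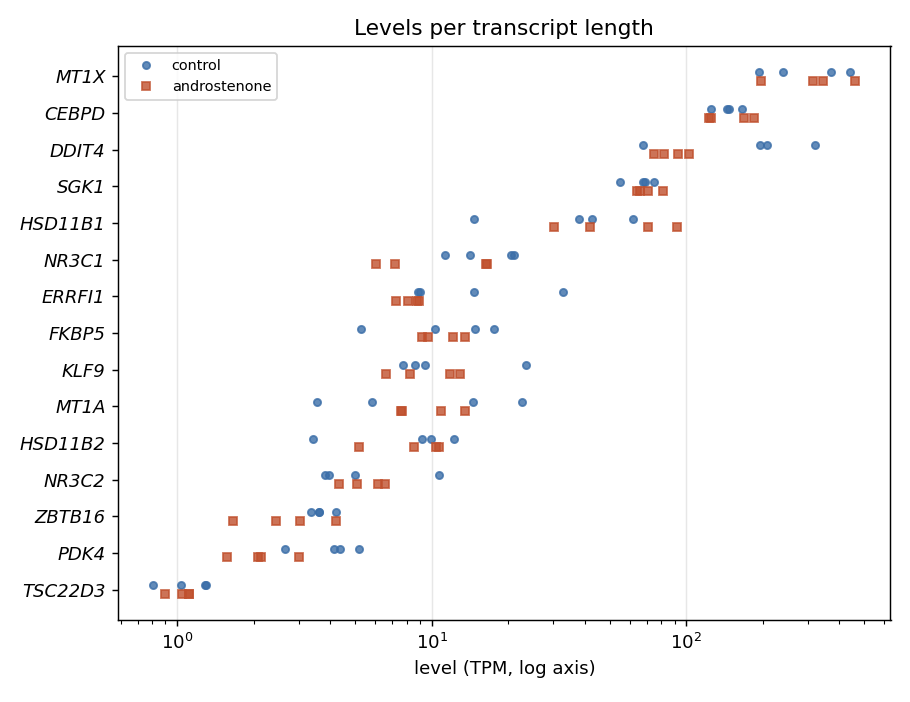
Levels in TPM (log axis) of the 9 matched glucocorticoid response genes, the receptors NR3C1 and NR3C2, the enzymes HSD11B1 and HSD11B2, and the metallothioneins MT1X and MT1A, with 1 point per library (blue circles, control; orange squares, androstenone). CEBPD, DDIT4 and SGK1 lay at the top of the members and TSC22D3, at 1.08 TPM on average, at the bottom.

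In the comparison of the groups, no shared rise of the glucocorticoid response genes was seen. The cutoff followed the study, with an unadjusted p below 0.05 and a change of 2-fold or more in either direction (1 on the log2 scale). By edgeR's quasi-likelihood test, 1 of the 9 genes passed it. This was DDIT4, which was lower in the androstenone treatment group. The background was 4.38% of all 21318 genes tested called as lower and 6.42% called in either direction, and nothing particular to the list is read from a count of 1. Of the 9 genes, 3 had a fold change above 0 and 6 below 0, and their median log2 fold change was -0.27, against -0.02 over all genes tested. After Benjamini-Hochberg adjustment over all genes, 0 members passed, as did 0 of all genes, while 2415 of all genes had an unadjusted p below 0.05. The groups overlapped for all 9 members, and over all genes they did not overlap for 6.53%. All single levels below are in CPM, counts scaled to a common library total after TMM normalization.

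FKBP5, a co-chaperone that binds the glucocorticoid receptor and damps it in a feedback loop, is the readout most often used for the hormone. The gene (ENSSSCG00000001549) spans 31441764 to 31550704 of chromosome 7 (genome build Sscrofa11.1, as for all positions below). Its levels were 26.7, 45.6, 14.1 and 49.7 CPM in control 1 to 4 and 38.2, 27.4, 29.1 and 38.9 CPM in androstenone 1 to 4. All androstenone libraries lay inside the range of the control libraries, which held both the lowest and the highest value. The group means were 34.0 ± 16.7 and 33.4 ± 6.02 CPM (SD, n = 4 libraries each). The log2 fold change was -0.03 (95% interval -0.88 to 0.82, edgeR adjusted p = 0.982). By the spread between libraries, not sows, the interval leaves room for a level 0.545 to 1.76 times that of the control group.

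The transcriptional regulators of the list showed no difference past the test. TSC22D3 (ENSSSCG00000056590, chromosome X, 88171325 to 88233583), also known as GILZ, encodes a leucine zipper protein that carries anti-inflammatory effects of glucocorticoids. It was at 1.85, 2.31, 2.36 and 1.88 CPM in the control libraries and at 2.43, 2.16, 2.31 and 1.78 CPM in the androstenone libraries. The libraries of both groups were thus interleaved within a narrow band. On the log2 scale the change was 0.04 (95% interval -0.50 to 0.57), and in control 1 its 9 counts gave an exact counting interval of 0.845 to 3.51 CPM. ZBTB16 (ENSSSCG00000030095, chromosome 9, 41639536 to 41839254), a zinc finger repressor also called PLZF, was at 13.4, 11.4, 11.7 and 13.7 CPM in the control libraries. In the androstenone libraries it was at 9.38, 6.06, 15.4 and 10.7 CPM. Androstenone 3 was the highest of all libraries and androstenone 2 the lowest, so that the androstenone treatment group enclosed the control group. For ZBTB16 the log2 fold change was -0.27 (95% interval -0.92 to 0.38).

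KLF9 and CEBPD are further transcription factors with glucocorticoid-induced expression. KLF9 (ENSSSCG00000021646, chromosome 1, 223723613 to 223747661) was at 26.5, 28.8, 24.3 and 93.1 CPM in the control libraries and at 30.6, 23.3, 45.8 and 40.2 CPM in the androstenone libraries. Control 4 stood far above the other libraries. With all libraries the log2 fold change was -0.31 (95% interval -1.37 to 0.76), and without control 4 it was 0.40 (95% interval -0.18 to 0.97), so that 1 library set its sign. CEBPD (ENSSSCG00000032367, chromosome 4, 79872863 to 79874481), which takes part in acute phase and fat cell programmes, was at 126, 106, 145 and 159 CPM in the control libraries. In the androstenone libraries it was at 174, 182, 121 and 118 CPM, with androstenone 1 and 2 above and androstenone 3 and 4 within the control range. Its log2 fold change was 0.15 (95% interval -0.34 to 0.64). In edgeR's quasi-likelihood test the adjusted p of these 4 regulators was 0.70 to 0.959.

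SGK1 and ERRFI1 act on signalling at the membrane. SGK1 (ENSSSCG00000021443, chromosome 1, 29625786 to 29753619) is a kinase that keeps epithelial sodium channels at the cell surface and is induced by both glucocorticoids and aldosterone. It was the steadiest member, at 113, 103, 104 and 107 CPM in the control libraries and 128, 139, 112 and 110 CPM in the androstenone libraries. Androstenone 1 and 2 lay above every control library, androstenone 3 and 4 did not. The log2 fold change was 0.20 (95% interval -0.13 to 0.53, edgeR adjusted p = 0.595). The upper end of this interval is a 1.44-fold rise, and it reflects the spread between libraries, not between sows. ERRFI1 (ENSSSCG00000035774, chromosome 6, 68667651 to 68682629), a feedback inhibitor of the epidermal growth factor receptor, was at 8.01, 8.12, 13.6 and 38.4 CPM in the control libraries. Its androstenone libraries were close together at 8.80, 9.10, 9.34 and 7.30 CPM. The log2 fold change was -0.99 (SE 0.50, edgeR unadjusted p = 0.0822, adjusted p = 0.483). Without control 4 it was -0.21 (edgeR unadjusted p = 0.444).

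DDIT4 and PDK4 are the metabolic members and had the smallest p-values of the list. DDIT4 (ENSSSCG00000031888, chromosome 14, 75117708 to 75119907), also called REDD1, restrains the growth kinase mTOR and is induced by glucocorticoids and by low oxygen. It was at 192, 203, 67.8 and 406 CPM in the control libraries and at 122, 105, 93.2 and 81.7 CPM in the androstenone libraries. Of the control libraries, 3 lay above every androstenone library, and control 3 lay below all of them. The group means were 217 ± 140 and 101 ± 17.3 CPM (SD, n = 4 each). This was a log2 fold change of -1.11 (SE 0.46, edgeR unadjusted p = 0.0401, adjusted p = 0.43). The call held in 1 of the 8 fits that leave out 1 library, that without control 3, with a log2 fold change of -1.41 (edgeR unadjusted p = 0.00181). Without any one of the other 7 libraries the unadjusted p of that test was 0.053 to 0.132, and without control 4 the log2 fold change was -0.62.

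PDK4 (ENSSSCG00000015334, chromosome 9, 75246956 to 75260134) blocks the entry of pyruvate into mitochondrial oxidation and rises in many tissues on fasting. It was at 10.7, 11.1, 6.90 and 17.1 CPM in the control libraries and at 9.29, 6.27, 4.63 and 5.87 CPM in the androstenone libraries. Control 4 was highest, as for DDIT4, and control 3 was the only control library within the androstenone range. PDK4 had a log2 fold change of -0.82 (SE 0.33, edgeR unadjusted p = 0.0384, adjusted p = 0.429), short of the fold of the cutoff. At an unadjusted p below 0.05 with any fold, DDIT4 and PDK4 were the 2 members lower in the androstenone treatment group, and over all genes this share was 6.24%. Without control 4 the log2 fold change of PDK4 was -0.55 (edgeR unadjusted p = 0.109).

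**Figure D2:**
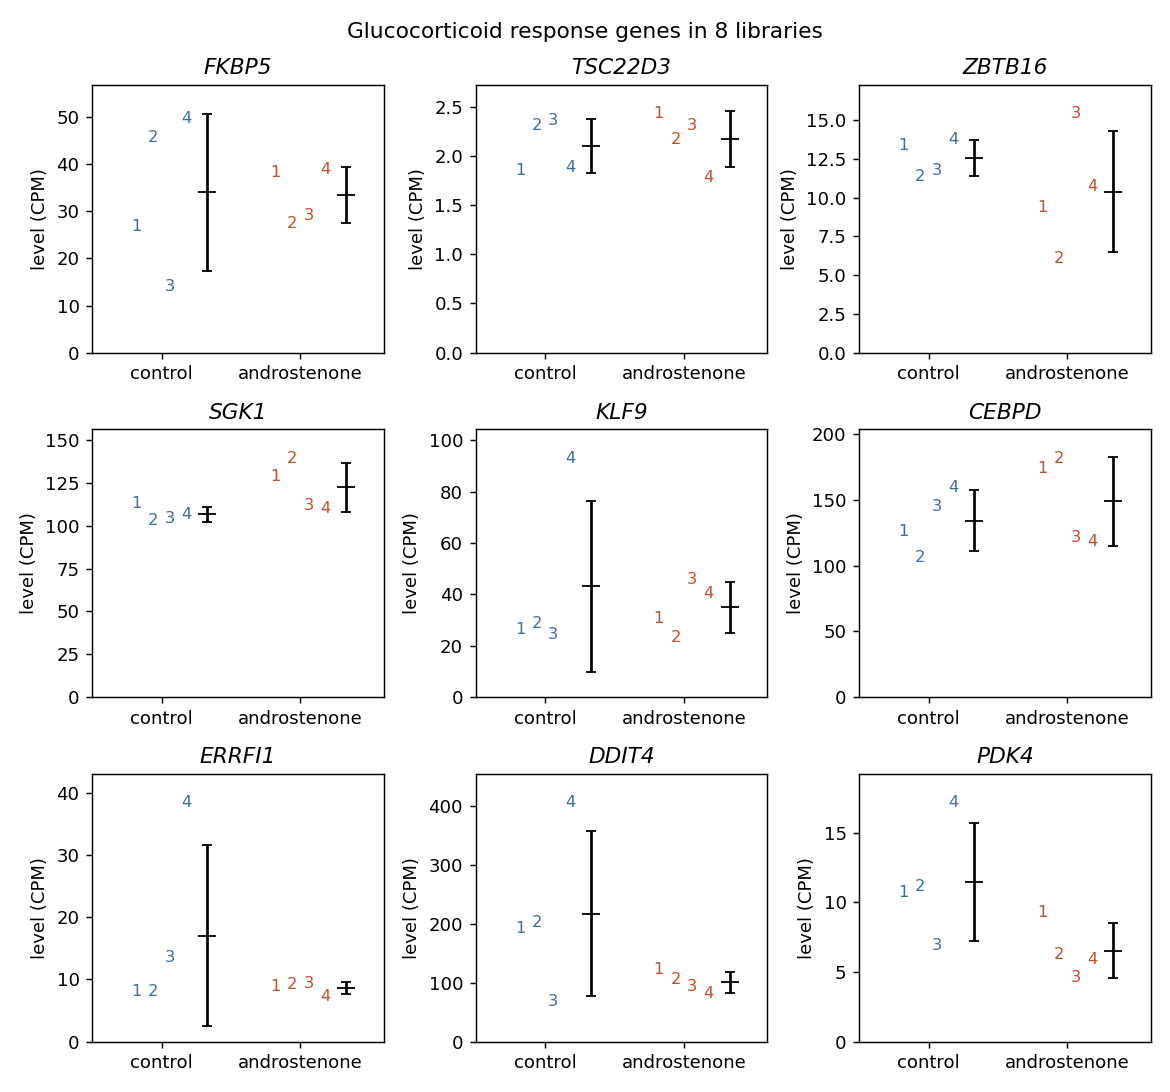
Levels in CPM of the 9 glucocorticoid response genes in each library (digits give the replicate number; blue, control; orange, androstenone), with the group mean and SD of 4 libraries in black. Control 4 stands apart for KLF9, ERRFI1 and DDIT4, and for FKBP5 all androstenone libraries lie inside the control range.

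**Figure D3:**
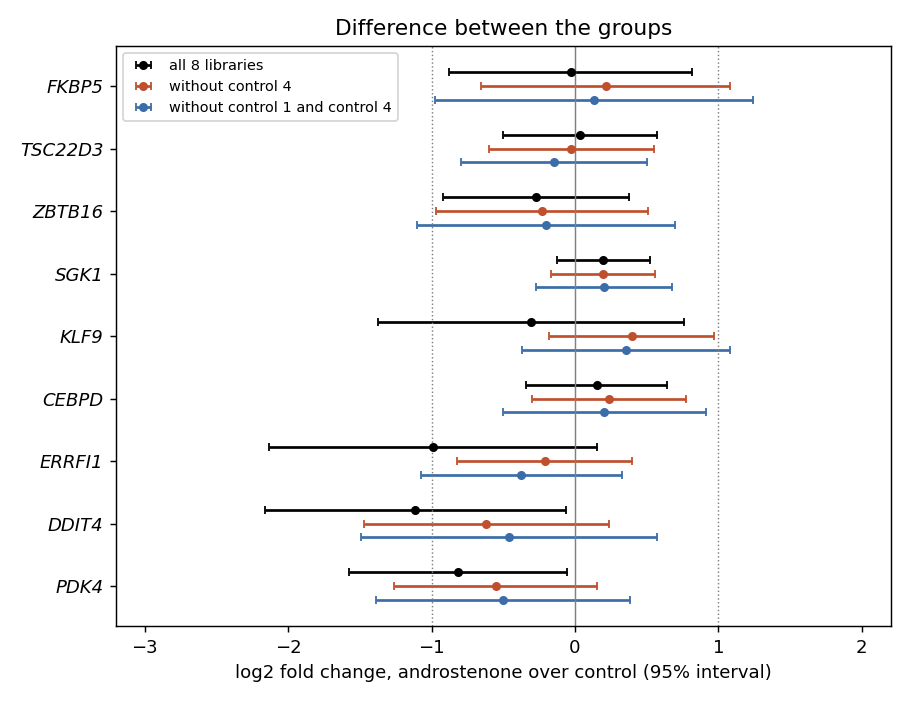
Log2 fold changes of the androstenone treatment group over the control group with 95% intervals from edgeR's quasi-likelihood fit, with all libraries (black), without control 4 (orange) and without control 1 and control 4 (blue); dotted lines mark a log2 fold change of 1 in either direction. With control 4 left out, DDIT4 moved from -1.11 to -0.62 and KLF9 from -0.31 to 0.40, and every interval covered 0.

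A single library weighed on several members. Control 4 had the highest level for 5 of the 9 members, FKBP5, KLF9, ERRFI1, DDIT4 and PDK4, while it was the highest library for 22.8% of the 15945 genes with a mean of at least 1 CPM. Without control 4, 0 of the 9 members passed the cutoff, with 4.95% of all genes called, and the median log2 fold change of the members was -0.02. With control 1 left out as well, 0 members passed, with 4.15% of all genes called. The summed bone and cartilage markers were highest in control 4, as given above. COL2A1 was an exception, at 3.25 CPM in control 4 and 5.45 CPM in control 2. ACAN and ALPL were next highest in control 2, at 498 and 206 CPM. FABP4, a fatty acid carrier of fat cells and other cells, was at 54.0 CPM in control 4. In the other libraries it was at 1.97 to 12.8 CPM. Of the 8 bone and cartilage markers, 5 passed as lower in the androstenone treatment group with all libraries, beside 4.38% of all genes. They were ACAN, BGLAP, IBSP, SPP1 and ALPL, named after their values were seen. Without control 4, 1 of the 8 markers passed as lower, ACAN, at a log2 fold change of -4.28. The share of all genes called in either direction was then 4.95%. The part of these markers in the levels of the glucocorticoid response genes was not tested. As these are bulk samples, fewer cells of a type and less RNA per cell cannot be told apart.

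The members also differed in how much they varied. From the lowest to the highest library, SGK1 changed 1.35-fold and TSC22D3 1.36-fold, less than about 95% of genes, while the median gene with a mean of at least 1 CPM changed 2.41-fold. CEBPD changed 1.71-fold and ZBTB16 2.54-fold. FKBP5, PDK4, KLF9, ERRFI1 and DDIT4 changed 3.54-, 3.70-, 3.99-, 5.25- and 5.99-fold. By Euclidean distance between centred log2 CPM values over the 8 libraries, SGK1 and CEBPD were closest, at 0.538. TSC22D3 and DDIT4 were farthest, at 2.46. The values were not scaled, so genes that vary little lie close to each other whatever their pattern. DDIT4 and PDK4 lay 1.06 apart and KLF9 and ERRFI1 1.41 apart. FKBP5, in contrast, lay at least 1.52 from every other member.

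**Figure D4:**
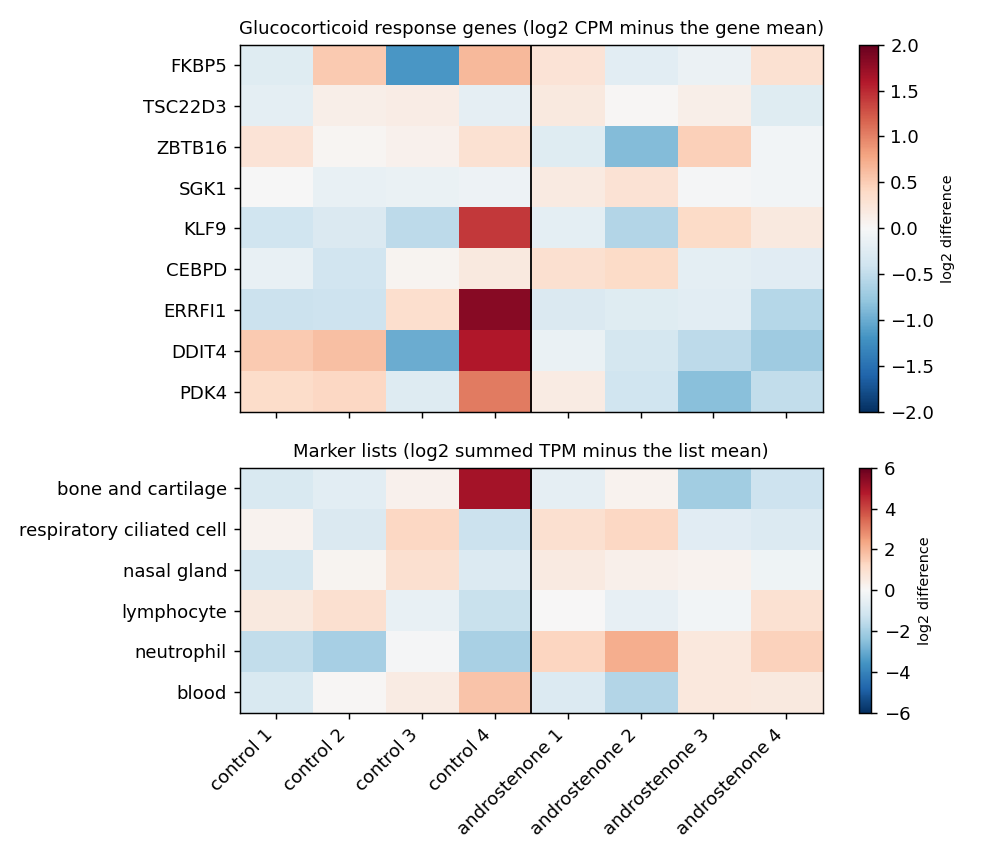
Top, log2 CPM of each glucocorticoid response gene minus its mean over the 8 libraries; bottom, log2 summed TPM of 6 marker lists minus the mean of each list, with the black line between control and androstenone libraries. KLF9, ERRFI1, DDIT4 and PDK4 were high in control 4, the library with 29550 TPM of bone and cartilage markers, and the row of SGK1 is nearly flat.

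Genes nearest to 3 members by the same distance were sought among 13449 other named genes with a mean of at least 1 CPM. Nearest to FKBP5 were SH3BGRL3, SCARB1 and MAN2B1, with distances of 0.537, 0.687 and 0.729, against a median distance of 1.91. SH3BGRL3 was lowest in control 3, at 27.8 CPM, and highest in control 4, at 104 CPM, as FKBP5 was. Nearest to TSC22D3 were GADD45GIP1, ACTMAP and SEPHS1, with distances of 0.22, 0.225 and 0.233 and a median of 1.22. Nearest to ZBTB16 were NHS, DUSP22 and ZNF649, at 0.361, 0.377 and 0.387, with a median of 1.61. None of these 9 genes is on the lists of glucocorticoid targets used here. Those lists hold few of the 13449 genes compared, so nothing is read from this.

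The machinery that receives the hormone was present in every library. NR3C1, the glucocorticoid receptor, was at 85.5, 83.1, 47.0 and 74.5 CPM in the control libraries and at 35.2, 28.1, 77.0 and 74.2 CPM in the androstenone libraries. Its 3 lowest values were those of control 3, androstenone 1 and androstenone 2, the libraries with the most ciliated cell markers, and the part of those cells in the level was not tested. The log2 fold change was -0.43 (95% interval -1.27 to 0.40). NR3C2, the mineralocorticoid receptor, which also binds cortisol, was at 12.9, 10.1, 27.9 and 12.6 CPM in the control libraries and 19.1, 19.4, 15.1 and 12.3 CPM in the androstenone libraries. In NR3C2 the same 3 libraries had the 3 highest values. On the log2 scale the change was 0.05 (95% interval -0.73 to 0.83). The log2 ratio of NR3C1 to NR3C2 in TPM was 1.61 ± 1.03 in control and 0.93 ± 1.03 in androstenone libraries (SD, n = 4 each), a difference of -0.68 (two-sided exact permutation test, p = 0.257). It was above 0 in 7 of the 8 libraries.

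HSD11B1 turns inactive cortisone into cortisol within tissues, and HSD11B2 does the reverse and shields the mineralocorticoid receptor. HSD11B1 was at 50.3, 30.6, 35.4 and 15.3 CPM in the control libraries and at 40.9, 28.0, 86.4 and 63.6 CPM in the androstenone libraries, with androstenone 3 and 4 above all others. Its log2 fold change was 0.74 (95% interval -0.24 to 1.72, edgeR adjusted p = 0.527). HSD11B2 ranged from 4.92 to 14.4 CPM and had a log2 fold change of 0.17 (95% interval -0.67 to 1.01). In TPM, HSD11B1 exceeded HSD11B2 in all 8 libraries, by 2.89- to 13.7-fold. The log2 ratio was 2.15 ± 0.351 in control and 2.68 ± 1.09 in androstenone libraries (SD, n = 4 each; two-sided exact permutation test of the difference of 0.53, p = 0.4; the smallest p the test allows is 0.0286).

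Over the whole machinery list of 18 genes, 0 passed the cutoff in either direction, and the median log2 fold change was 0.14. HSP90AA1, the inducible chaperone that holds the receptor, ranged from 770 to 3050 CPM and had its 3 highest values in control 3, androstenone 1 and androstenone 2. FKBP4, the co-chaperone that replaces FKBP5 when the hormone binds, was at 165, 157, 211 and 116 CPM in the control libraries and 326, 359, 157 and 130 CPM in the androstenone libraries. The log2 fold changes of HSP90AA1 and FKBP4 were 0.58 and 0.58, with adjusted p of 0.678 and 0.551 from edgeR's quasi-likelihood test. HSP90AB1 was the 1 gene of the 18 with groups that did not overlap, beside 6.53% of all genes, with a log2 fold change of 0.26 and a quasi-likelihood p of 0.169 in edgeR, and it is named for that after the values were seen.

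Other genes that glucocorticoids induce were counted from a list of 30, of which 28 were tested. None passed the cutoff as higher and 2 passed as lower, CRISPLD2 and HIF3A, beside 2.04% and 4.38% of all genes. The median log2 fold change was -0.17, with 9 above and 19 below 0. CRISPLD2, a secreted protein, was at 11.9, 164, 3.53 and 219 CPM in the control libraries and at 5.18, 4.82, 17.1 and 18.6 CPM in the androstenone libraries. The change was -3.13 on the log2 scale (SE 1.19, edgeR adjusted p = 0.416). Control 2 and 4 were high and the other control libraries lay among the androstenone libraries. HIF3A, a member of the hypoxia-inducible factor family, was at 1.03, 5.63, 0.856 and 4.36 CPM against 0.775, 0.902, 1.36 and 0.706 CPM. Its change was -1.71 on the log2 scale (SE 0.62, edgeR adjusted p = 0.416). It shared with CRISPLD2 the high values of control 2 and 4. Both calls were lost without control 2, control 4 or androstenone 1, that of CRISPLD2 also without androstenone 2, and that of HIF3A also without androstenone 4, with unadjusted p of 0.0581 to 0.0848 from edgeR's quasi-likelihood test.

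The fast targets that cortisol is best known to raise did not pass either. PER1, a clock gene with a glucocorticoid-driven promoter, was at 214, 242, 201 and 267 CPM in the control libraries and at 235, 213, 229 and 173 CPM in the androstenone libraries. On the log2 scale the change was -0.12 (95% interval -0.53 to 0.28). DUSP1, a phosphatase that switches off MAP kinases, was at 62.7, 174, 60.8 and 67.0 CPM against 59.4, 73.1, 49.7 and 58.2 CPM. Apart from control 2, its 7 libraries lay between 49.7 and 73.1 CPM. Its log2 fold change was -0.60 with all libraries (edgeR adjusted p = 0.537) and -0.08 without control 2. NFKBIA, the inhibitor of NF-kappa-B, ranged from 76.2 to 182 CPM and had a log2 fold change of 0.08. KLF15, a regulator of amino acid and fat use, and ANGPTL4, an inhibitor of lipoprotein lipase, had log2 fold changes of 0.37 and -0.35. RHOB, a small GTPase, had the smallest p of this list. Of the 28 genes tested, it was the 1 with groups that did not overlap, beside 6.53% of all genes. It was at 108, 144, 144 and 179 CPM in the control libraries and at 72.8, 69.3, 91.5 and 89.9 CPM in the androstenone libraries. On the log2 scale the change was -0.83 (edgeR unadjusted p = 0.00252, adjusted p = 0.378), and RHOB is named here after its values were seen.

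Inflammatory genes that glucocorticoids repress were counted from a list of 16, of which 15 were tested. Of these, 3 passed the cutoff as higher in the androstenone treatment group, CXCL10, IL1A and CCL5, and 2 as lower, NOS2 and MMP9, beside 2.04% and 4.38% of all genes. The median log2 fold change was 0.40, with 11 above and 4 below 0, and for 6 of the 15 the groups did not overlap, beside 6.53% of all genes. CXCL10, an interferon-induced chemokine, was at 72.7, 44.5, 36.3 and 21.5 CPM in the control libraries and at 207, 179, 99.2 and 87.1 CPM in the androstenone libraries. Its log2 fold change was 1.71 (SE 0.43, edgeR unadjusted p = 0.00332, adjusted p = 0.393). NOS2, the inducible nitric oxide synthase, was at 10.5, 6.95, 6.55 and 6.93 CPM against 2.53, 1.75, 2.74 and 3.15 CPM, every androstenone library below every control library. On the log2 scale the change was -1.59 (SE 0.28, edgeR unadjusted p = 0.000352, adjusted p = 0.342). The calls of CXCL10 and NOS2 held with each of the 8 libraries left out in turn.

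The other calls of the inflammatory list were less steady. IL1A, a cytokine, rose from 3.53 ± 1.39 to 7.16 ± 1.06 CPM and CCL5, a chemokine of T cells, from 36.4 ± 7.12 to 72.6 ± 28.6 CPM (SD, n = 4 each). Their log2 fold changes were 1.03 and 1.00, at the edge of the cutoff, with adjusted p of 0.403 and 0.393 from edgeR's quasi-likelihood test. Both fell short of the fold of the cutoff without control 2, control 4 or androstenone 2, IL1A also without androstenone 3 and CCL5 also without androstenone 1. The lowest values were 0.85 for IL1A without control 2 and 0.71 for CCL5 without androstenone 1. MMP9, a gelatinase that bone-resorbing cells also make, was at 1514 CPM in control 4 and at 16.0 to 116 CPM in the other libraries. The log2 fold change of MMP9 went from -3.50 to -0.52 without control 4, and the call was also lost without androstenone 2, 3 or 4. Of 6 neutrophil markers, 3 had a row. Their summed level was 58.1 to 173 TPM in the androstenone libraries and 9.42 to 35.7 TPM in the control libraries. In the same order, S100A8 was at 6.03 to 18.6 and 0.644 to 3.23 CPM, and CSF3R at 7.53 to 12.4 and 3.23 to 5.55 CPM. MMP8 was at most 0.517 CPM and its groups overlapped. The sum of 8 lymphocyte markers, among them CCL5, was 329 to 874 TPM in the androstenone and 182 to 885 TPM in the control libraries. The part of these cells in the inflammatory genes was not tested.

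Further signals act on single members and were read from lists of their own. Of 7 tested genes of mineralocorticoid-responsive sodium transport, the pathway of SGK1, 0 passed the cutoff, with a median log2 fold change of 0.45. Of 10 tested hypoxia genes, which share the oxygen input of DDIT4, 0 passed, with a median of -0.04. Of 8 fasting and PPAR genes, which share the input of PDK4, 1 passed as lower, beside 4.38% of all genes. This was FABP4, with a log2 fold change of -2.29, and -0.88 without control 4. The call of FABP4 was also lost without androstenone 1 or 2. Of 7 metal response genes, of which MT1A and MT3 are metallothioneins like the missing MT2A and the other 5 are not, 0 passed, with a median of 0.07, and of 0.39 without control 4. MT1X, a metal-binding metallothionein and the most abundant of those with a row, was named after the tables were seen. It stood at 321 ± 104 TPM (SD, n = 8), and MT1A at 10.8 ± 6.09 TPM. MT1X was at 36.2, 18.7, 23.9 and 55.5 CPM in the control libraries and at 37.1, 22.1, 52.0 and 37.1 CPM in the androstenone libraries, a log2 fold change of 0.14 (95% interval -0.72 to 1.01), and of 0.50 without control 4. Metallothionein genes are close copies of each other, so reads can be split among them and these levels are uncertain.

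**Figure D5:**
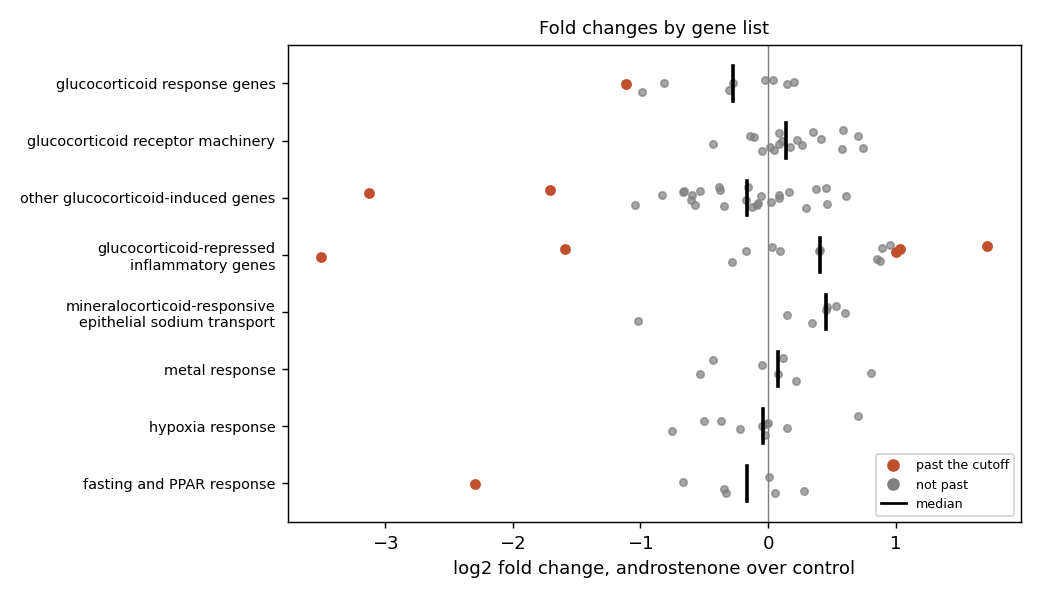
Log2 fold changes of the androstenone treatment group over the control group, 1 point per gene, for the glucocorticoid response genes and 7 related lists (orange, past the unadjusted cutoff; grey, not past it; black bar, median of the list). The medians lie between -0.27 for the glucocorticoid response genes and 0.45 for sodium transport.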

How the data were processed

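RNA-seq libraries were made from the OE of 4 sows. Per the labels, reads were cleaned with fastp 0.23.1 and quantified with kallisto 0.48.0 on Sscrofa11.1. The authors used the Ensembl transcripts and deposited estimated counts per gene, not whole and not normalized, and TPM values. The sources used here do not say how transcripts were summed to genes. Control 1 held 4178330 counts and each of the others 81580146 to 100685566.

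Symbols were found for 15527 of 22516 identifiers in the gene name table, and coordinates were taken from RefSeq (Sscrofa11.1). Counts were rounded, and 21318 genes with at least 1 count were tested after TMM normalization by quasi-likelihood in edgeR 4.0.16 (all 8 libraries, treatment as the only term, R 4.3.3). The cutoff, p below 0.05 without adjustment and a log2 change of 1 or more either way, is that of the study, which used edgeR. Standard errors and 95% intervals were derived from the p-value and its degrees of freedom. Ratios were compared with exact permutation tests (scipy 1.17.1). Named were the members, NR3C1, NR3C2, HSD11B1, HSD11B2, FKBP4, HSP90AA1, PER1, DUSP1, NFKBIA, KLF15, ANGPTL4, the listed pathway genes past the cutoff, and the 3 nearest profiles of FKBP5, TSC22D3 and ZBTB16. The members and lists were chosen with earlier results of these data known.

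Alternatives were edgeR's exact and likelihood ratio tests, DESeq2 1.42.0, limma 3.58.1 (voom, and log2(TPM + 0.1) or log2(TPM + 1)), RLE or no normalization factors, filterByExpr, no filter, counts not rounded, the replicate block, sums of counts by sow for each of the 9 ways to pair libraries, and libraries left out. The edgeR, DESeq2 and voom steps were tested on simulated data. Libraries of a group were compared pairwise by chi-square per degree of freedom, which grows with disagreement and with counts. None agreed within sampling noise. The value was 112 for androstenone 1 and 2 and 117 for androstenone 3 and 4. For the other androstenone pairs it was 738 to 1119. Control pairs spanned 42.3 to 3025, the lowest with control 1 and its low total. Whether the closer androstenone pairs each come from 1 sow was not tested.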

Additional observations from a re-analysis of the deposited data

Results flagged for a closer look

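Of 56 groups of 4 libraries checked, for 28 named genes, 6 held a library far from the other 3, a rule that chance meets in about 5% of groups. KLF9 was at 93.1 CPM in control 4, against 24.3 to 28.8 CPM in the other control libraries. MMP9 was at 1514 CPM in control 4, against 19.8 to 116 CPM. DUSP1 was at 174 CPM in control 2, against 60.8 to 67.0 CPM. In control 3, NR3C2 was at 27.9 CPM, against 10.1 to 12.9 CPM, and HSP90AA1 at 2212 CPM, against 845 to 1034 CPM. NOS2 was at 10.5 CPM in control 1, against 6.55 to 6.95 CPM. All 6 flags were in the control group.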

How the results depend on the processing

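SGK1, CEBPD and ZBTB16 kept their direction and stayed short of the cutoff under every alternative run. Both log2 ratios kept their direction, with no permutation p below 0.05, in the 10 alternatives run for each. With any library left out, the permutation test has too few assignments to reach a p below 0.05. The call of DDIT4 was lost in limma voom (log2 fold change -0.87), with library size only (-0.97), in limma on log2(TPM + 0.1) (-0.97) and log2(TPM + 1) (-0.97), without control 1 and control 4 together (-0.46), and over counts summed per sow at the lowest (-1.41) and the highest (-0.82) of the fold changes of the 9 pairings, of which 3 kept the call. Members past the cutoff then numbered 0 in voom, with library size only, in both TPM fits, without both libraries and at the lowest over the pairings. FKBP5 changed sign in voom (0.10), with library size only (0.064), in limma on log2(TPM + 0.1) (0.0088), without control 1 and control 4 (0.13) and at the highest over the pairings (0.15). TSC22D3 did so in DESeq2 (-0.017), voom (-0.00455), the TPM fits (-0.060 and -0.038), without control 1 and control 4 (-0.15) and at the lowest over the pairings (-0.064). KLF9 was at 0.36 without control 1 and control 4. With 1 library left out, the log2 fold changes spanned -0.29 to 0.21 for FKBP5, -0.025 to 0.12 for TSC22D3, -0.51 to 0.40 for KLF9, -1.22 to -0.21 for ERRFI1, -1.41 to -0.62 for DDIT4 and -1.04 to -0.55 for PDK4, and members past the cutoff 0 to 1. ERRFI1 passed the cutoff without control 1 (-1.21) or control 2 (-1.22), and PDK4 without androstenone 1 (-1.04). The cause was not tested.

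Over all genes, 1368 passed the cutoff, against 718 and 319 in limma on log2(TPM + 0.1) and log2(TPM + 1), 881 without control 1 and control 4, 368 at the lowest over the pairings, and 867 (without androstenone 1) to 2414 (without control 3) with 1 library left out, and 881 without androstenone 2. After adjustment 0 genes passed, against 157 in edgeR's exact test, 200 in its likelihood ratio test, 670 in DESeq2, 1 with library size only and 2 in limma on log2(TPM + 0.1). The replicate numbers were shared by the groups, but same-numbered libraries did not deviate together (correlations -0.04, -0.50, -0.60 and 0.17 over 18347 genes). With the number as a replicate block, 583 genes and 0 members passed the cutoff, DDIT4 was at -0.86 and FKBP5 at 0.12. The low total of deposited counts in control 1 limits TSC22D3 most, with 9 counts there.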
